A study of Mus musculus with 16 samples.

Results

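The genes described here are 45 interferon response genes of the mouse, followed across 8 mammary fibroblast lines and 2 cultures of each line. They were taken by gene symbol from the non-normalized table of a bead array, with Rigi found under its older name Ddx58. Of the 45 listed genes, 43 had a probe (71 probes) and 31 passed the filter on detection (47 probes), among 16593 named genes with a probe and 7454 named genes that passed. Ifi44 and Dtx3l had no probe under these names. The filter asks for a detection p under 0.01, the authors' comparison of a probe with the negative controls of its array, on at least 2 arrays.

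All lines were isolated from FVB/N mice, carried the E6 gene of human papillomavirus for immortalization and grew for 72 h in DMEM with 10% serum, untreated, on a Matrigel gel mixed with collagen I. NF2 and NF3 are the lines of normal mammary gland. The lesion lines come from MMTV-PyMT mice: HpAF1 (hyperplasia), AdAF1 (adenoma) and CAF1 to CAF4 (carcinoma). In these mice a promoter active in mammary epithelium drives the polyoma middle T oncogene. Each culture gave 1 array, so the normal stage has 2 lines and 4 arrays, hyperplasia and adenoma have 1 line and 2 arrays each, and carcinoma has 4 lines and 8 arrays. Whether the lines came from separate animals or are single clones, whether the normal lines came from transgenic litters, and which arrays shared a chip is not stated in the sources used here. Hyperplasia and adenoma each rest on 1 line, so stage and line cannot be told apart for them.

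Interferons are secreted proteins that signal through cell surface receptors. Type I interferons bind a receptor of the subunits Ifnar1 and Ifnar2, whose kinases Jak1 and Tyk2 phosphorylate Stat2. Together with Irf9 it forms part of the complex ISGF3, which binds the interferon-stimulated response element (ISRE) upstream of its target genes. Interferon gamma signals through Ifngr1 and Ifngr2 to genes that carry the gamma-activated sequence (GAS). Fibroblasts carry both receptors and induce many of the same antiviral genes as other cells when they meet interferon or foreign nucleic acid.

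Levels are given as log2 of the background-corrected, quantile-normalized intensity, so that a difference of 1 is a doubling, and levels of different genes are not compared because each probe has its own response. For each line, culture 1 is given before culture 2. Each array detected between 7445 and 9823 of 25697 probes, and the lowest level at which a probe still counted as detected lay between 5.72 and 6.77 by array. Below it, levels are compressed toward the background. Non-detection of a probe does not show that the transcript was absent. Irf1, Gbp2 and Irgm1 each had a probe detected on 0 arrays and another detected on all 16. Of 12 fibroblast markers with a probe, 11 were detected, among them the collagens, and Fap was detected on no array. Of 10 leukocyte and macrophage markers, 8 were never detected, including Ptprc, and the summed intensity of the list ran from 303 in NF3 to 477 in CAF3, with 383 and 360 in the AdAF1 cultures and 393 and 374 in the CAF1 cultures. The 2 tested markers of that list differed among lines in limma's moderated F test over the 8 lines. Coro1a had line means of 6.58 (CAF1), 6.53 (AdAF1) and 6.26 (HpAF1), against 5.03 (NF2) and 5.53 (NF3), with an adjusted p of 0.0070. Lyz2 was highest in CAF3 at 7.11, then CAF1 at 5.86, against 5.46 (NF2) and 4.61 (NF3), with an adjusted p of 0.0036. The part of these markers in the member levels was not tested. Of 9 epithelial markers, 7 were never detected, and the sum ran from 266 (NF3) to 351 (CAF1). The endothelial list, with 4 of 7 markers never detected, ran from 414 (CAF2) to 1086 (HpAF1).

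The interferon response genes differed from line to line, and the 2 lines with the highest levels were CAF1, from carcinoma, and AdAF1, from adenoma. Averaged over the 31 tested members, the level was 7.67 (NF2), 7.64 (NF3), 7.71 (HpAF1), 9.15 (AdAF1), 9.47 (CAF1), 7.53 (CAF2), 8.43 (CAF3) and 7.74 (CAF4). The mean over all tested genes lay between 8.40 and 8.43 in every line. Quantile normalization holds that mean nearly constant, so it is no free contrast to the members. By the member means, CAF1 and AdAF1 stood above the other lines and CAF3 came next. The remaining 5 lines, both normal ones included, lay between 7.53 and 7.74. CAF1 had the highest line mean for 24 of 31 members, against 14.1% of all tested genes. AdAF1 and CAF1 were the 2 highest lines for 25 of 31, against 6.1% of all tested genes. In a bulk culture, fewer cells with a transcript and less transcript per cell cannot be told apart.

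**Figure D1:**
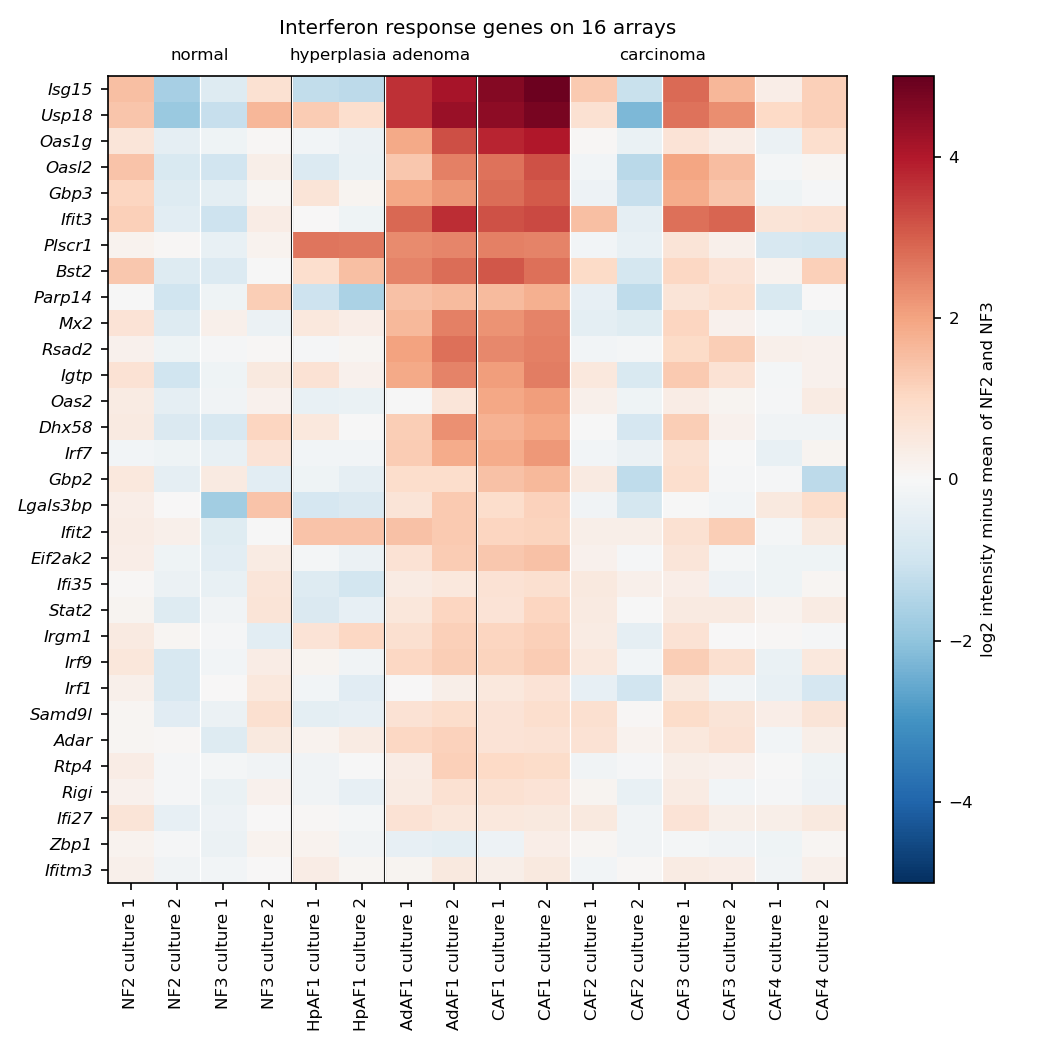
Heat map of the 31 tested members (rows, ordered by the range of their line means) on 16 arrays (columns, grouped by stage). Colour is the log2 intensity minus the mean of NF2 and NF3. The AdAF1 and CAF1 columns are red in most rows, with differences above 4 for Isg15 and Usp18 in CAF1, and the 2 columns of NF2, NF3 and CAF2 differ within a line.

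Line differences beyond the spread between cultures were tested with limma's moderated F test over the 8 lines, with p-values adjusted by Benjamini-Hochberg over all tested probes. Of the 31 tested members, 19 passed at 0.05, against 25.9% of all tested genes. The range of the 8 line means exceeded 1 for 28 of 31 members, against 42.7% of all tested genes, with a median range of 2.22 for members and 0.90 for all genes. A probe that passed the filter only through its high arrays had to differ, so these counts describe the tested members and not all 45. Oas2 and Rtp4, for example, were detected on the 2 CAF1 arrays only, and Irf7, Oas1g and Rsad2 only on arrays of AdAF1, CAF1 and CAF3. Of the 13 members detected on all 16 arrays, 6 passed, against 22.8% of the 4785 genes detected on all arrays. The count of 19 was 11 without CAF1 culture 2 and 10 without both CAF1 cultures. Without single arrays or single lines in turn (24 fits), 10 members passed every time, namely Ifit2, Ifit3, Isg15, Rsad2, Mx2, Irf7, Oas1g, Gbp3, Parp14 and Plscr1. Of the 12 members that did not pass, 9 passed in some fits that left out an array or line. Irf1 and Irf9 passed without either NF2 culture or line NF2, and Adar, Lgals3bp, Rigi and Samd9l without either NF3 culture or line NF3. Stat2 and Dhx58 passed without NF2 culture 1, either NF3 culture, line NF2 or line NF3, and Gbp2 without CAF2 culture 1. Zbp1, Ifi27 and Ifitm3 passed in none of these fits. Cultures of a line may be technical repeats, so these p-values measure the spread between cultures only.

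Among the transcription factors of the response, Irf7 differed among lines and Irf1, Irf9 and Stat2 did not pass. Irf7, which amplifies type I interferon production, had levels of 4.97 and 4.88 (NF2), 4.72 and 5.79 (NF3), 4.97 and 4.94 (HpAF1), 6.35 and 6.96 (AdAF1), 6.95 and 7.27 (CAF1), 4.97 and 4.79 (CAF2), 5.84 and 5.08 (CAF3), and 4.73 and 5.24 (CAF4). Only the AdAF1 and CAF1 arrays and culture 1 of CAF3 were above detection, and no normal array was (F test, adjusted p = 0.0029). Irf7 thus passed the filter only through these arrays, so its difference was set in part by the filter. Irf1 and Irf9 were detected on all 16 arrays and Stat2 on 11, so their tests are not like that of Irf7. Irf9, the DNA-binding subunit of ISGF3, had levels of 8.66 and 7.28 (NF2), 7.94 and 8.46 (NF3), 8.20 and 7.93 (HpAF1), 9.10 and 9.33 (AdAF1), 9.21 and 9.35 (CAF1), 8.63 and 7.93 (CAF2), 9.30 and 8.88 (CAF3), and 7.75 and 8.61 (CAF4). The AdAF1, CAF1 and CAF3 arrays lay above all normal arrays, but the cultures of NF2 differed by more than 1, and the F test gave an adjusted p of 0.088. Stat2, the partner of Irf9 in ISGF3, had levels of 6.46 and 5.68 (NF2), 6.15 and 6.98 (NF3), 5.59 and 5.90 (HpAF1), 6.87 and 7.39 (AdAF1), 6.99 and 7.39 (CAF1), 6.77 and 6.32 (CAF2), 6.76 and 6.75 (CAF3), and 6.48 and 6.74 (CAF4). NF3 culture 2 lay above the lower AdAF1 array, and Stat2 did not pass (F test, adjusted p = 0.053). Irf1, a factor induced by interferon gamma, was detected on all arrays, at 10.24 and 9.18 (NF2), 10.01 and 10.53 (NF3), 9.86 and 9.41 (HpAF1), 10.01 and 10.28 (AdAF1), 10.53 and 10.68 (CAF1), 9.58 and 9.04 (CAF2), 10.49 and 9.80 (CAF3), and 9.61 and 9.16 (CAF4). The CAF1 arrays were the highest, but NF3 culture 2 equalled the lower of them to 2 decimals (F test, adjusted p = 0.11).

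Isg15 and Usp18 showed the widest ranges. Isg15 is a ubiquitin-like protein that interferon induces and that is joined to other proteins, and Usp18 is the protease that removes it and also dampens signalling at Ifnar2. Isg15 had levels of 8.77 and 5.58 (NF2), 6.62 and 8.02 (NF3), 6.04 and 5.93 (HpAF1), 10.91 and 11.39 (AdAF1), 11.82 and 12.17 (CAF1), 8.56 and 6.15 (CAF2), 10.07 and 8.91 (CAF3), and 7.57 and 8.45 (CAF4). The AdAF1 and CAF1 arrays lay above every other array, while one culture of each of NF2, NF3 and CAF2 and both of HpAF1 fell below detection. Its line means spanned 6.01 (F test, adjusted p = 0.0051). Usp18 had levels of 8.59 and 5.34 (NF2), 6.04 and 8.87 (NF3), 8.49 and 8.06 (HpAF1), 10.85 and 11.54 (AdAF1), 11.68 and 11.95 (CAF1), 7.96 and 4.96 (CAF2), 9.93 and 9.55 (CAF3), and 8.21 and 8.38 (CAF4). AdAF1 and CAF1 were again above all other arrays, CAF3 came next, and culture 2 minus culture 1 was −3.25 in NF2, 2.83 in NF3 and −3.00 in CAF2. Its line means spanned 5.35 (F test, adjusted p = 0.021), a call that was lost in 5 of the 24 fits that left out an array or line (without AdAF1 culture 2, either CAF1 culture, line AdAF1 or line CAF1).

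**Figure D2:**
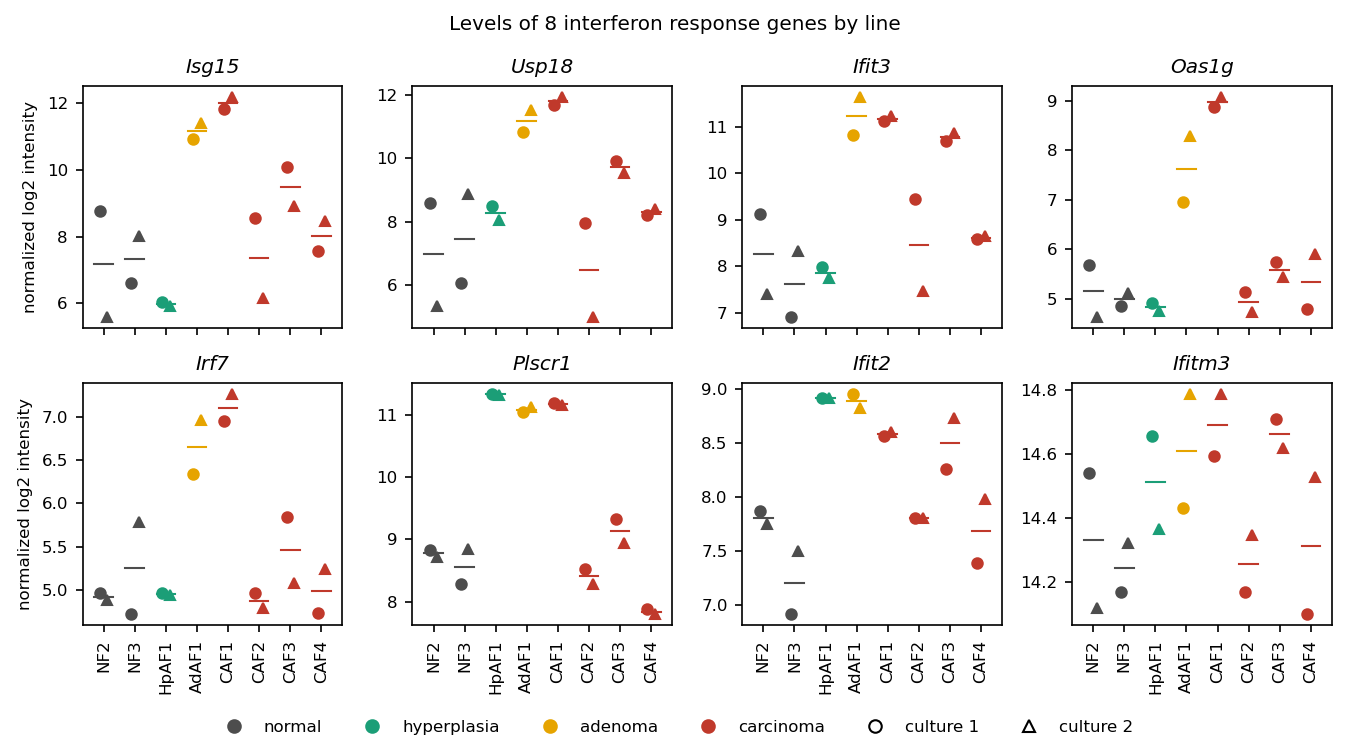
Normalized log2 intensity of 8 members in the 8 lines, from normal to carcinoma. Circles are culture 1, triangles culture 2, and bars the mean of both, with a separate vertical scale for each gene. Isg15, Usp18, Oas1g and Irf7 are highest in AdAF1 and CAF1, Ifit3 is high in CAF3 too, Plscr1 and Ifit2 are high in HpAF1, and Ifitm3 spans 0.45 between line means.

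The windows upstream of 5 members are shown because their ranges between lines were among the 8 widest and each holds the ISRE core, and that of Plscr1 because it followed another order of lines and holds none. Each is the 250 bases before the annotated start, 5′ to 3′ on the strand of the gene, from RefSeq promoter windows of build GRCm38.p6, with every match to the ISRE core in capitals. The windows lie at chr4:156200819-156201068 (minus strand) for Isg15, chr5:120887614-120887863 (minus strand) for Oas1g, chr19:34583279-34583528 (plus strand) for Ifit3, chr3:142559794-142560043 (plus strand) for Gbp3 (the first of its 2 annotated starts), chr8:71537473-71537722 (minus strand) for Bst2 and chr9:92249944-92250193 (plus strand) for Plscr1.
Isg15: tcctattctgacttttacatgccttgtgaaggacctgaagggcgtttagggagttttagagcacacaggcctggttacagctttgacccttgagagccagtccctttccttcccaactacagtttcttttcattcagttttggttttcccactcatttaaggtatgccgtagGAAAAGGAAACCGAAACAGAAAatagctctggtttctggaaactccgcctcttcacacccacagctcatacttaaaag
Oas1g: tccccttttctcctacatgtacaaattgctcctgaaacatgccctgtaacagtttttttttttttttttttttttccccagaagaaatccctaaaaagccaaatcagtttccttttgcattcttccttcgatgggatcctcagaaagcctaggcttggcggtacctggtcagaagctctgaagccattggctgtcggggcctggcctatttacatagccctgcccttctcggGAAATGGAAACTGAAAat
Ifit3: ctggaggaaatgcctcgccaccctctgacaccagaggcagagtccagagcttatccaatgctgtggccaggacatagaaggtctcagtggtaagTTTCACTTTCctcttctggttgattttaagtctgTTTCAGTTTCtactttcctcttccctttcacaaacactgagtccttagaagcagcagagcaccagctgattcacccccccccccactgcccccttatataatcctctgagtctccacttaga
Gbp3: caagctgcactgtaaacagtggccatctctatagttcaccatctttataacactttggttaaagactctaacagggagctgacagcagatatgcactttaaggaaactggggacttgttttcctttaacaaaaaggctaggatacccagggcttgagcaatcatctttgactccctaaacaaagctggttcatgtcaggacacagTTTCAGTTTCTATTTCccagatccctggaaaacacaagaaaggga
Bst2: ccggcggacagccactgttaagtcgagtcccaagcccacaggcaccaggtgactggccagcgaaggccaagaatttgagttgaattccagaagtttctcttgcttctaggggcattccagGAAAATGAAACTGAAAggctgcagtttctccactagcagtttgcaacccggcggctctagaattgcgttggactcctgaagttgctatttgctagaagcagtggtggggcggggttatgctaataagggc
Plscr1: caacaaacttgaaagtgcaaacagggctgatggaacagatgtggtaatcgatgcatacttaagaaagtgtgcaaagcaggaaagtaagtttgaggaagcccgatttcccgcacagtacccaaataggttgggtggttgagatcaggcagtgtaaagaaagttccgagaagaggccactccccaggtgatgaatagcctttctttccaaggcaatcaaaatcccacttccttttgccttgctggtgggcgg
Isg15 holds 3 cores that overlap, the first starting 78 bases before the start site. Oas1g holds 2 overlapping cores, the first 18 bases before the start, Gbp3 2 overlapping cores from 45 bases before it on the other strand, and Bst2 2 overlapping cores from 130 bases before it. Ifit3 holds 2 separate cores, which begin 156 and 122 bases before the start, also on the other strand. The upstream window of Plscr1 has no capitals. The core searched was GAAANNGAAA on both strands of the whole 300-base window (250 bases before to 50 after the start). It was present for 18 of 34 listed members with a window (52.9%), against 3.99% of 27025 genes with a window. The GAS letters TTCNNNGAA, which read the same way on both strands, were present for 10 of 34 members (29.4%), against 9.55% of all genes, 5 members held both, and in 2 of them the matches overlapped. Among tested members with a window, the median range of line means was 2.48 for the 13 with the core (0.45 to 6.01) and 1.64 for the 10 without it (1.17 to 3.68). Oasl2, Irf7 and Plscr1, all with ranges above 2, held no ISRE core in this window.

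The Ifit genes, whose proteins bind foreign RNA and block its translation, were high in AdAF1, CAF1 and CAF3, and Ifit2 also in HpAF1. Ifit3 was detected on all arrays, with levels of 9.13 and 7.41 (NF2), 6.90 and 8.32 (NF3), 7.98 and 7.74 (HpAF1), 10.82 and 11.63 (AdAF1), 11.11 and 11.22 (CAF1), 9.44 and 7.48 (CAF2), 10.69 and 10.87 (CAF3), and 8.58 and 8.65 (CAF4). The 6 arrays of AdAF1, CAF1 and CAF3 lay above the other 10 (F test, adjusted p = 0.0038). Ifit2 had levels of 7.87 and 7.75 (NF2), 6.91 and 7.50 (NF3), 8.92 and 8.92 (HpAF1), 8.96 and 8.83 (AdAF1), 8.56 and 8.60 (CAF1), 7.80 and 7.81 (CAF2), 8.26 and 8.74 (CAF3), and 7.39 and 7.98 (CAF4). The 8 arrays of HpAF1, AdAF1, CAF1 and CAF3 lay above the 8 arrays of the other lines, and the cultures of most lines were close (F test, adjusted p = 0.0021). On a second tested probe of Ifit2, HpAF1 had a mean of 6.68, against 6.54 in NF2 and 5.50 in NF3. Ifit1 was detected on no array. A near-identical neighbour, Ifit3b, could share the Ifit3 probes.

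The Oas genes encode enzymes that make short oligoadenylates and so switch on an RNase that degrades RNA. Oas1g had levels of 5.68 and 4.63 (NF2), 4.86 and 5.13 (NF3), 4.93 and 4.77 (HpAF1), 6.96 and 8.29 (AdAF1), 8.88 and 9.08 (CAF1), 5.14 and 4.74 (CAF2), 5.74 and 5.44 (CAF3), and 4.79 and 5.91 (CAF4). It was detected in AdAF1, in CAF1 and in culture 1 of CAF3 and in no normal culture, with CAF1 above AdAF1 (F test, adjusted p = 0.00034). Oasl2, a member of the family with a ubiquitin-like tail, had levels of 7.71 and 5.53 (NF2), 5.31 and 6.58 (NF3), 5.61 and 5.94 (HpAF1), 7.63 and 8.79 (AdAF1), 8.99 and 9.47 (CAF1), 6.16 and 4.94 (CAF2), 8.25 and 7.81 (CAF3), and 6.20 and 6.40 (CAF4). CAF1 was highest, CAF3 and AdAF1 overlapped, and NF2 culture 1 lay above the lower AdAF1 array (F test, adjusted p = 0.0092, lost without line CAF1). Oas2 had levels of 5.48 and 4.63 (NF2), 4.92 and 5.29 (NF3), 4.72 and 4.73 (HpAF1), 5.06 and 5.68 (AdAF1), 7.01 and 7.16 (CAF1), 5.35 and 4.87 (CAF2), 5.45 and 5.20 (CAF3), and 5.03 and 5.47 (CAF4). CAF1 alone was above detection, and AdAF1 overlapped with the other lines (F test, adjusted p = 0.0041, lost without CAF1 culture 2 and without line CAF1). Oas1a and Oas3 were detected on no array and Oasl1 on 1, a CAF1 array. Oas1a and Oas1g are close copies, so that their probes could share transcripts.

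Large GTPases of the response attack the compartments in which microbes multiply. Gbp3, a guanylate-binding protein, had levels of 7.21 and 5.48 (NF2), 5.64 and 6.24 (NF3), 6.78 and 6.28 (HpAF1), 8.08 and 8.33 (AdAF1), 8.93 and 9.20 (CAF1), 5.88 and 4.98 (CAF2), 8.00 and 7.52 (CAF3), and 5.91 and 6.08 (CAF4). CAF1 was highest, followed by AdAF1 and CAF3 (F test, adjusted p = 0.0014). Its relative Gbp2 had levels of 9.74 and 8.78 (NF2), 9.68 and 8.68 (NF3), 9.01 and 8.79 (HpAF1), 10.09 and 10.09 (AdAF1), 10.67 and 10.85 (CAF1), 9.66 and 7.96 (CAF2), 10.06 and 9.17 (CAF3), and 9.15 and 7.93 (CAF4). CAF1 was highest again, but culture 1 was well above culture 2 in NF2, NF3, CAF2, CAF3 and CAF4, and Gbp2 did not pass (adjusted p = 0.098). Mx2, a dynamin-like GTPase against viruses, had levels of 6.00 and 4.67 (NF2), 5.57 and 5.05 (NF3), 5.83 and 5.64 (HpAF1), 6.95 and 7.84 (AdAF1), 7.55 and 7.80 (CAF1), 4.85 and 4.72 (CAF2), 6.41 and 5.52 (CAF3), and 5.21 and 5.11 (CAF4). The AdAF1 and CAF1 arrays lay above the other 12, most of which were below detection (F test, adjusted p = 0.0024). Igtp, an immunity-related GTPase, had levels of 7.39 and 5.65 (NF2), 6.43 and 7.16 (NF3), 7.38 and 6.87 (HpAF1), 8.57 and 9.13 (AdAF1), 8.76 and 9.23 (CAF1), 7.18 and 5.90 (CAF2), 7.98 and 7.39 (CAF3), and 6.57 and 6.87 (CAF4). AdAF1 and CAF1 were above all other arrays and NF2 culture 1 was level with the lower CAF3 array (F test, adjusted p = 0.016, lost without CAF1 culture 2 and without line CAF1). Irgm1, which restrains the other immunity-related GTPases, ranged over 1.42 between line means, with CAF1, AdAF1 and HpAF1 highest and NF3 lowest (F test, adjusted p = 0.028, lost in 8 of 24 fits, without either culture or both of HpAF1 or of CAF1, without AdAF1 culture 2 or without line AdAF1). On a second tested probe of Irgm1, CAF1, AdAF1 and CAF3 were highest, and HpAF1 was level with NF2 at 7.64. Mx1 and Iigp1 were detected on no array.

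Among proteins that act at membranes, Plscr1 followed an order of its own. Plscr1, a phospholipid scramblase, had levels of 8.84 and 8.71 (NF2), 8.28 and 8.85 (NF3), 11.33 and 11.32 (HpAF1), 11.04 and 11.12 (AdAF1), 11.19 and 11.16 (CAF1), 8.53 and 8.29 (CAF2), 9.33 and 8.94 (CAF3), and 7.88 and 7.80 (CAF4). The arrays of HpAF1, AdAF1 and CAF1 lay between 11.04 and 11.33, above every array of the other 5 lines, whose highest was 9.33 in CAF3, and CAF4 was lowest (F test, adjusted p = 1.8e-06). Bst2 (tetherin), which holds budding viruses to the cell, had levels of 7.36 and 5.37 (NF2), 5.35 and 5.98 (NF3), 6.87 and 7.50 (HpAF1), 8.51 and 8.79 (AdAF1), 9.12 and 8.78 (CAF1), 6.95 and 5.12 (CAF2), 7.05 and 6.70 (CAF3), and 6.19 and 7.20 (CAF4). AdAF1 and CAF1 lay above the other lines, and HpAF1 overlapped with NF2 culture 1 (F test, adjusted p = 0.018, lost in 5 of 24 fits, without AdAF1 culture 2, either CAF1 culture, line AdAF1 or line CAF1). Rsad2 (viperin), an enzyme that makes a chain-terminating nucleotide, had levels of 5.16 and 4.75 (NF2), 4.89 and 5.02 (NF3), 4.91 and 5.04 (HpAF1), 6.96 and 7.73 (AdAF1), 7.34 and 7.48 (CAF1), 4.82 and 4.85 (CAF2), 5.90 and 6.20 (CAF3), and 5.20 and 5.19 (CAF4). Only AdAF1, CAF1 and CAF3 were detected, and each lay above all normal arrays (F test, adjusted p = 3.1e-05). Ifitm3, which hinders the entry of viruses, was high on every array and had the smallest range of all tested members, 0.45, and did not pass (adjusted p = 0.39).

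Among the members Dhx58, Eif2ak2, Rigi, Adar and Zbp1, only Eif2ak2 passed the F test. Dhx58 (LGP2), a helicase that tunes RNA sensing, had levels of 6.91 and 5.73 (NF2), 5.64 and 7.51 (NF3), 6.99 and 6.43 (HpAF1), 7.67 and 8.73 (AdAF1), 8.17 and 8.37 (CAF1), 6.42 and 5.62 (CAF2), 7.69 and 6.67 (CAF3), and 6.28 and 6.26 (CAF4). AdAF1 and CAF1 were highest, but culture 1 of CAF3 lay above the lower AdAF1 array and NF3 culture 2 came close, and Dhx58 did not pass (F test, adjusted p = 0.059). Eif2ak2 (PKR), a kinase that stops translation when it binds double-stranded RNA, had levels of 11.12 and 10.56 (NF2), 10.24 and 11.19 (NF3), 10.70 and 10.48 (HpAF1), 11.50 and 12.04 (AdAF1), 12.14 and 12.25 (CAF1), 11.01 and 10.73 (CAF2), 11.39 and 10.67 (CAF3), and 10.55 and 10.57 (CAF4). CAF1 was highest on both arrays, above AdAF1 (F test, adjusted p = 0.021, lost in 6 of 24 fits, without either culture or both of HpAF1 or of CAF1). Rigi, the RNA sensor RIG-I, ranged over 1.01, Adar, an RNA-editing enzyme, over 1.17, and Zbp1, a sensor of nucleic acid in the Z form, over 0.51, and none of them passed. Zbp1 was the only tested member with a lower mean in AdAF1 than in the normal lines, and it was detected on 4 arrays. Ifih1 (MDA5) was detected on no array.

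The remaining members have diverse roles. Parp14, an ADP-ribosyltransferase, had levels of 6.96 and 6.00 (NF2), 6.77 and 8.20 (NF3), 5.94 and 5.39 (HpAF1), 8.45 and 8.55 (AdAF1), 8.55 and 8.77 (CAF1), 6.56 and 5.69 (CAF2), 7.61 and 7.81 (CAF3), and 6.23 and 6.98 (CAF4). AdAF1 and CAF1 were above all other arrays, HpAF1 was below detection, and NF3 was above NF2 on average (F test, adjusted p = 0.0038). Lgals3bp, a secreted glycoprotein that binds galectins, had levels of 11.22 and 10.90 (NF2), 9.15 and 12.31 (NF3), 10.08 and 10.19 (HpAF1), 11.53 and 12.22 (AdAF1), 11.78 and 12.05 (CAF1), 10.72 and 10.04 (CAF2), 10.86 and 10.76 (CAF3), and 11.38 and 11.78 (CAF4). The cultures of NF3 held both the lowest and the highest array of the series, and Lgals3bp did not pass (adjusted p = 0.28). Ifi35, a partner of Nmi, had levels of 8.19 and 7.83 (NF2), 7.73 and 8.73 (NF3), 7.46 and 7.19 (HpAF1), 8.52 and 8.66 (AdAF1), 8.86 and 8.92 (CAF1), 8.60 and 8.38 (CAF2), 8.46 and 7.87 (CAF3), and 7.91 and 8.23 (CAF4). CAF1 was highest and HpAF1 lowest (F test, adjusted p = 0.045), but the call was lost in 15 of 24 fits. These were the fits without NF2 culture 2, without either culture of HpAF1, AdAF1, CAF1, CAF2 or CAF4, and without one of the lines HpAF1, AdAF1, CAF1 and CAF2. Samd9l, an antiviral and growth-restricting factor, ranged over 1.25, and Ifi27, a mitochondrial protein, over 0.75, and neither passed. Rtp4, a receptor chaperone, ranged over 1.11 and was detected on the CAF1 arrays only (adjusted p = 0.02, lost in 5 of 24 fits, without HpAF1 culture 1, either CAF1 culture, line HpAF1 or line CAF1). Parp9, the partner of Dtx3l, Trim25, a ligase that acts on RIG-I, Trim30a, Xaf1 and the nucleotide kinase Cmpk2 were detected on no array.

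The comparison over stages asks whether the members changed with the lesion when lines, not cultures, are the replicates. No member passed in carcinoma against normal (limma over line means, 4 lines against 2), where 0% of all tested genes passed, and Samd9l was the 1 member with an unadjusted p under 0.05, at a difference of 0.62 (SE 0.22), where 2.63% of all tested genes had one. The mean was higher in carcinoma for 29 of 31 members, with a median difference of 0.49, against 50.1% and 0.00 over all tested genes. Without line CAF1 this median was 0.15. It was 0.28 without NF2 culture 2 and 0.75 without NF3 culture 2. No member had all carcinoma arrays above, or all below, all normal arrays (0.416% and 0.362% of all tested genes). The carcinoma lines lay far apart for the members with wide ranges. Isg15 had means of 12.00 in CAF1, 9.49 in CAF3, 8.01 in CAF4 and 7.35 in CAF2, against 7.18 in NF2 and 7.32 in NF3. The difference was 1.96 (SE 1.18, adjusted p = 1). In adenoma, whose lone line is taken to vary like the other stages, 30 of 31 members had a higher mean than in normal, with a median difference of 1.14 (46.9% and −0.03 over all tested genes), none passed (0% of all genes in either direction), and 7 had an unadjusted p under 0.05, against 3.86% of all genes (Ifit2, Ifit3, Rsad2, Bst2, Ifi27, Adar and Samd9l). In hyperplasia 12 of 31 were higher and 19 lower, with a median difference of −0.08 (48.6% higher and −0.02 over all genes), none passed (0.255% of all genes higher, 0.0671% lower), and 1, Ifit2, had an unadjusted p under 0.05, against 12.4% of all genes.

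Each lesion line was also set against the mean of NF2 and NF3, with cultures as replicates, so that a call is about the line and not its stage. The 6 comparisons share the normal arrays. In CAF1, 18 of 31 members were higher and none lower, against 4.48% and 2.7% of all tested genes. In AdAF1, 12 were higher and none lower, against 2.84% and 1.18%. In CAF3, 4 were higher, against 2.47%, and none lower (2.05%). In HpAF1, 2 were higher, against 9.02%, and 1 lower, against 9.06%. In CAF2 none passed (3.37% of all genes higher, 2.66% lower), nor did any in CAF4 (0.778% and 0.698%), and at an unadjusted p under 0.05 there were 0 members in CAF2, against 20.7% of all genes, and 1, Plscr1, in CAF4, against 12.4%, with a lower level in CAF4. Of the 13 members detected on every array, 5 were called higher in CAF1 and 3 in AdAF1, against 2.15% and 1.53% of the 4785 genes detected on every array.

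**Figure D3:**
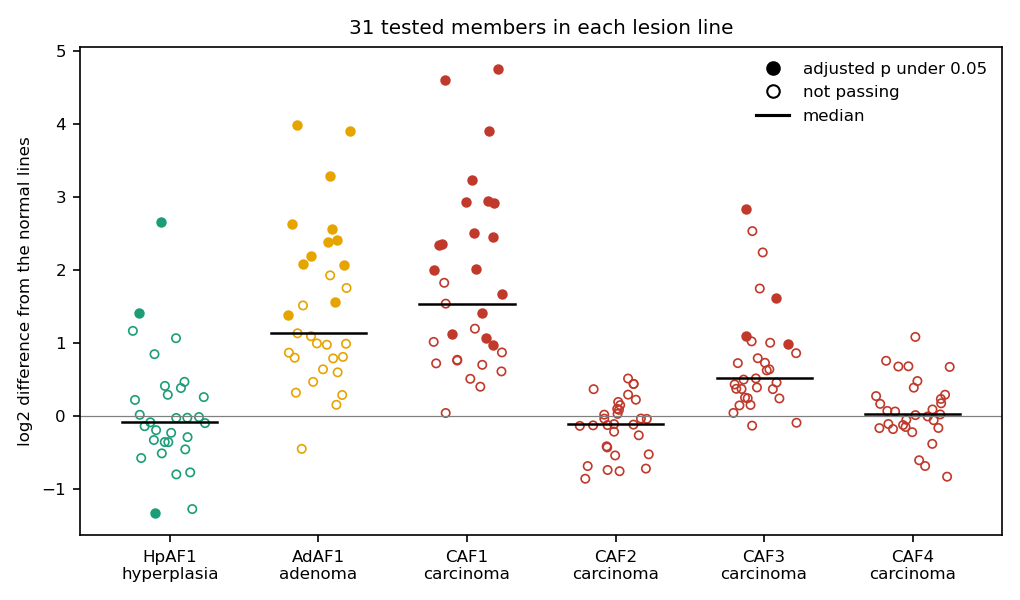
Difference of each lesion line from the mean of NF2 and NF3 (log2 scale) for the 31 tested members, 1 point per member, with filled points for an adjusted p under 0.05 and a bar at the median. Medians are −0.08 (HpAF1), 1.14 (AdAF1), 1.54 (CAF1), −0.11 (CAF2), 0.52 (CAF3) and 0.03 (CAF4).

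In CAF1 the differences were widest for Isg15, at 4.75 (SE 0.82, adjusted p = 0.0053), and Usp18, at 4.60 (SE 0.96, adjusted p = 0.015). Oas1g was at least 5.78-fold higher (adjusted p = 0.00016), a lower bound because no normal array was above detection. Rsad2 was at least 1.95-fold, Irf7 at least 1.58-fold and Oas2 at least 1.55-fold higher on the same terms. Ifit3 differed by 3.23 (SE 0.57, adjusted p = 0.0059), and Plscr1 by 2.50 (SE 0.18, adjusted p = 1.4e-05). Both CAF1 arrays lay above all 4 normal arrays for 27 of 31 members, against 16.6% of all tested genes, and above all other 14 arrays for 11 members, against 4.9%. The count of 18 was 7 without CAF1 culture 1, 5 without CAF1 culture 2 and 7 in a fit of the CAF1 and normal arrays alone. Rsad2, Oas1g, Gbp3 and Plscr1 passed in every fit that left out an array or a line. Rsad2, Oas1g and Irf7 entered the test only through AdAF1, CAF1 and CAF3 arrays, so their differences were set in part by the filter. Oas2 did so too, but it entered the test through the 2 CAF1 arrays only, so that its difference was fixed by the filter.

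AdAF1 had its widest differences for Usp18, at 3.99 (SE 0.96, adjusted p = 0.041), and Isg15, at 3.90 (SE 0.82, adjusted p = 0.021). Ifit3 differed by 3.28 (SE 0.57, adjusted p = 0.0085), and Plscr1 by 2.41 (SE 0.18, adjusted p = 3.5e-05). Oas1g was at least 2.26-fold, Rsad2 at least 1.86-fold and Irf7 at least 1.15-fold higher, with no normal array above detection. Both AdAF1 arrays lay above all normal arrays for 21 of 31 members, against 11.6% of all tested genes. The count of 12 was 6 without AdAF1 culture 1, 3 without AdAF1 culture 2 and 2 in a fit of the AdAF1 and normal arrays alone. Rsad2 and Plscr1 passed in every fit that left out an array or a line. Rsad2, Oas1g and Irf7 entered the test only through AdAF1, CAF1 and CAF3 arrays, so their differences were set in part by the filter. The call for Usp18 was lost in 16 of 23 such fits and held only without NF2 culture 1, NF3 culture 2, either CAF2 culture, or line NF2, NF3 or CAF2.

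In CAF3, Ifit3 differed by 2.84 (SE 0.57, adjusted p = 0.017), Gbp3 by 1.62 (SE 0.41, adjusted p = 0.049) and Ifit2 by 0.99 (SE 0.21, adjusted p = 0.023). Rsad2 was higher too (adjusted p = 0.014), with no fold given because CAF3 was near the limit of detection and the normal arrays below it. Both CAF3 arrays lay above the normal arrays for 12 members, against 13.2% of all tested genes. The count of 4 was 0 without either CAF3 culture, 0 in a fit of the CAF3 and normal arrays alone, 2 with the mean of all probes of a gene, 2 without NF2 culture 2, 2 without line NF3 and 8 without NF2 culture 1. Gbp3 passed only without NF2 culture 1, NF3 culture 2, either CAF2 culture, or line NF2 or CAF2, apart from the fit of all arrays.

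HpAF1 differed from the normal lines in both directions. Plscr1 was higher, by 2.66 (SE 0.18, adjusted p = 2.7e-06), as was Ifit2, by 1.41 (SE 0.21, adjusted p = 0.0011), and both calls held in every fit that left out an array or a line. Parp14 was at least 1.39-fold lower in HpAF1 (adjusted p = 0.045), where it was below detection, and this call was lost in 14 of 23 such fits. It held only without NF2 culture 2, NF3 culture 1, any single culture of CAF2 or CAF4, or line NF2, CAF2 or CAF4. Isg15, which had a mean of 5.98 in HpAF1, against 7.18 in NF2 and 7.32 in NF3, did not pass (adjusted p = 0.32). Both HpAF1 arrays lay above the normal arrays for 3 members (Plscr1, Ifit2 and Irgm1) and below them for 2 (Parp14 and Ifi35), against 19.8% and 20.2% of all tested genes. On a second tested probe, the HpAF1 mean was level with NF2 for Irgm1 (7.64 in both) and near NF2 for Ifit2 (6.68 against 6.54). Without NF3 culture 1 the count of 3 called members was 6. Both CAF4 arrays lay above all normal arrays for 1 member, Rsad2, and below them for 1, Plscr1, against 7.24% and 7.28% of all tested genes. Rsad2 was below detection on all CAF4 and normal arrays, so this order is no measured difference. In CAF2 and CAF4, where no member passed, 1 passed in each without NF3 culture 1, and in CAF4 2 passed without NF3 culture 2 and 1 without line NF3.

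Within carcinoma, each line was compared with the mean of the other 3. CAF1 was higher for 21 of 31 members and lower for none, against 7.19% and 6.43% of all tested genes. Isg15 differed by 3.71 (SE 0.77, adjusted p = 0.0092), Oas1g by 3.69 (SE 0.38, adjusted p = 7.7e-05) and Plscr1 by 2.71 (SE 0.17, adjusted p = 2.2e-06). Oas1g was detected on 1 CAF3 array and on no CAF2 or CAF4 array. Its difference thus rests mostly on compressed levels below detection and was set in part by the filter. CAF2 was lower for 8 members and higher for none, against 5.42% and 4.71%. Gbp3 was at least 2.31-fold lower and Oasl2 at least 2.74-fold lower in CAF2, where neither was detected. CAF4 was lower for 2, against 1.84%, namely Plscr1, at −1.73 (SE 0.17, adjusted p = 0.00022), and Rsad2 (adjusted p = 0.033), which was below detection in CAF4. In CAF3 none passed (2.25% of all genes higher, 3.02% lower), with 3 members higher (Ifit2, Ifit3 and Gbp3) and 1 lower (Oas1g) at an unadjusted p under 0.05, against 21.2% of all genes. The CAF1 count was 7 without either CAF1 culture. The CAF2 count was 4 without CAF1 culture 2, 5 without CAF2 culture 1, 1 without CAF2 culture 2, 0 without line CAF1 and 16 without line CAF4. Without line CAF1, CAF3 had 3 members called. CAF4 kept Plscr1 in every fit and had 10 members called without line CAF2. Rsad2 was lost in 11 of 23 fits, without either culture of HpAF1, CAF1, CAF2 or CAF4, without CAF3 culture 2, and without line HpAF1 or CAF1.

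No member passed between the normal lines (NF3 against NF2, 0.0134% of all tested genes higher and 0.134% lower), with 1 member, Ifit2, at an unadjusted p under 0.05 (−0.60), against 8.34% of all genes. Their means over members, 7.64 in NF3 and 7.67 in NF2, were close, but their cultures were not. Without NF3 culture 2, 1 member passed.

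Cultures of one line differed in these genes in both directions. The median distance between cultures was larger for the tested members than for all tested genes in 7 of 8 lines, widest in NF2 (0.85, against 0.35 for all genes), while in CAF4 it was 0.30, against 0.32. In NF2 all 31 tested members were lower in culture 2 than in culture 1, with a median difference of −0.85, with −3.25 for Usp18. In NF3 27 of 31 were higher in culture 2, with a median of 0.60, with 3.16 for Lgals3bp. In CAF2 27 of 31 were lower in culture 2, with a median of −0.55, and Usp18 was again the most distant, at −3.00. The median over all tested genes lay between −0.03 and 0.01 in each line, near 0 as quantile normalization makes it. The other lines moved less. In culture 2, 28 of 31 members were higher in AdAF1 (median 0.38), 26 in CAF1 (0.15) and 22 in CAF4 (0.26), while 26 were lower in CAF3 (−0.38) and 20 in HpAF1 (−0.18). Cultures were more than 1 apart for 13 members in NF2, 11 in NF3, 7 in CAF2 and none in CAF1.

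**Figure D4:**
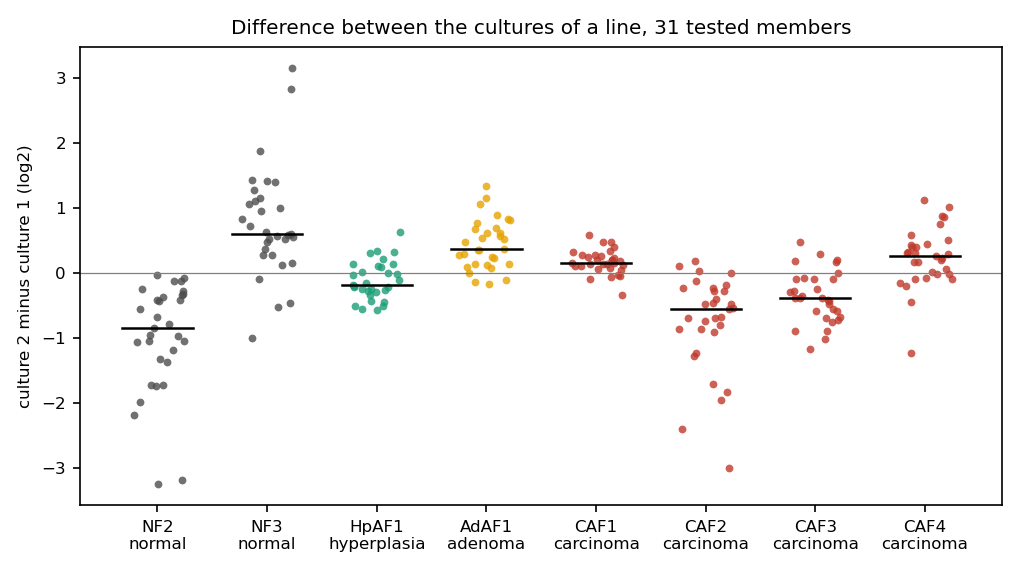
Difference between the cultures of each line (culture 2 minus culture 1, log2 scale) for the 31 tested members, 1 point per member, with a bar at the median. All points of NF2 lie below 0, most of NF3 lie above it, and those of CAF1 lie between −0.33 and 0.59.

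Single arrays of a normal line reached the level of some carcinoma lines. The mean over members ran from 7.15 (CAF2, culture 2) to 9.56 (CAF1, culture 2) on the carcinoma arrays, against 8.17 and 7.18 in NF2 and 7.26 and 8.03 in NF3. For 21 of 31 members NF2 culture 1 was above both arrays of CAF4. No member passed between the culture numbers across lines (limma with line as a block, 0% of all tested genes in either direction), with 17 members lower and 14 higher in culture 2, and 1 member, Gbp2, at an unadjusted p under 0.05 (−0.73), against 17.5% of all genes. The number of detected probes moved with the members in some lines and not in others. NF2 had 7929 detected probes in culture 2 and 9600 in culture 1, with 15 and 26 members detected. NF3 had 7445 in culture 2 and 7602 in culture 1, with 21 and 14 members detected, the opposite order. AdAF1 culture 2, with 7749 detected probes, had 28 members detected, as had culture 1 with 9093. The part of detection in the member levels was not tested.

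Across the 8 line means most pairs of members varied together. The median Pearson correlation over 465 pairs of tested members was 0.78, and 93.3% of pairs were above 0, all pairs sharing the same 8 lines and arrays. The same value was not computed for all tested genes. Rsad2 was most like the mean of the other members (r = 0.99 over 8 lines), followed by Igtp (0.98) and Irf7 (0.97). Rsad2 and Irf7 passed the filter only through AdAF1, CAF1 and CAF3 arrays, so their likeness was set in part by the filter. Ifit2 (0.61), Plscr1 (0.63), Ifi35 (0.64) and Samd9l (0.65) were less alike, and Zbp1 ran the other way (−0.42). For 12 members with several tested probes, the lowest correlation between probes of a gene over the 8 line means lay between 0.81 (Irgm1) and 0.99 (Gbp3). The probes named the same highest line for 5 of them.

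No ligand of the pathway was detected. None of the 6 interferon genes with a probe was detected on any array, Ifnb1 among them. The receptor subunit Ifnar1 and the kinase Jak1 were detected on none either. For these genes too, non-detection of a probe does not show that the transcript was absent. Of 6 tested receptors and kinases, 2 differed among lines, against 25.9% of all tested genes. Ifnar2, the second type I subunit, was highest in HpAF1, with line means of 6.27 (NF2), 6.02 (NF3), 7.86 (HpAF1), 7.29 (AdAF1), 7.01 (CAF1), 6.03 (CAF2), 6.01 (CAF3), 5.55 (CAF4) (F test, adjusted p = 0.0025). These 3 high lines, HpAF1, AdAF1 and CAF1, are also the 3 with high Plscr1. Ifngr1, a subunit of the interferon gamma receptor, was highest in CAF2 at 9.33, against 7.90 and 7.95 in the normal lines and 7.20 in HpAF1, its lowest (F test, adjusted p = 0.00018). Ifngr2 and Tyk2 were detected on all arrays and did not pass (adjusted p = 0.52 and 0.69). Of 4 tested transducers and negative regulators none passed. Of 8 tested genes of nucleic acid sensing 2 passed, again against 25.9% of all tested genes. They were the nuclease Trex1 and Irf5, whose line means ran from 5.03 in HpAF1 to 8.78 in CAF2.

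Other genes known to respond to interferon, listed apart from the 45, showed the same 2 lines at the top in part. This list too was chosen with earlier results of these data known, so it is no separate support. Some of its genes passed the filter on few arrays, such as Cxcl10 on 5, so the filter could set part of their differences. Of 63 listed, 28 were tested and 17 differed among lines, against 25.9% of all tested genes. In CAF1 10 of 28 were higher than in the normal lines (4.48% of all genes) and in AdAF1 5 (2.84%). In CAF3 2 were higher (2.47%) and 1 lower (2.05%). In CAF2 4 were lower (2.66%). Cxcl10, a chemokine for T cells, had line means of 7.90 in AdAF1 and 8.06 in CAF1, against 4.85 in NF2 and 4.96 in NF3 (F test, adjusted p = 6.4e-05). Ccl5, another chemokine, had means of 7.29 in AdAF1 and 8.31 in CAF1, against 5.53 in NF2 and 6.09 in NF3. Ifi27l2a reached 9.26 in CAF1, 8.11 in CAF3 and 7.64 in AdAF1, against 5.56 in NF2 and 5.63 in NF3. The GTPase Irgm2 was at 10.48 in CAF1 and 10.22 in AdAF1, against 8.49 in NF2 and 8.20 in NF3. Phf11d was at 8.43 in CAF1 and 7.87 in AdAF1, against 6.06 in NF2 and 6.04 in NF3. Of the inflammatory proteases, Casp1 had another order. Casp1, which cleaves interleukin precursors, had means of 10.00 in AdAF1, 9.77 in CAF4 and 9.58 in CAF1 but 4.78 in CAF2 and 5.17 in CAF3, against 7.69 in NF2 and 8.48 in NF3. Casp4, a sensor of bacterial lipopolysaccharide, was highest in CAF1 (9.60), AdAF1 (9.48) and CAF3 (9.19). It was lowest in CAF2, at 5.39, against 8.73 in NF2 and 7.50 in NF3. Cd274, the checkpoint ligand PD-L1, had a mean of 7.17 in CAF1, its highest line, against 6.01 in NF2 and 5.18 in NF3. Helz2, a helicase, was highest there too, at 7.61, against 5.67 in NF2 and 6.27 in NF3.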

How the data were processed

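RNA of 16 cultures (8 lines, 2 cultures each) was labelled as biotin cRNA with the Ambion MessageAmp kit and hybridised to mouse Illumina bead arrays, per the labels' protocols. The authors deposited the mean bead intensity of 25697 probes on each array, neither background-subtracted nor normalized per the file headers and values, with a detection p-value for each probe. A second deposited table of intensity values has nearly the same quantiles on every array and was used as an alternative. The sources used here do not name scanner software, chips or labelling days. Such batches were not tested.

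Intensities were background-corrected with normexp on the detection p-values, offset by 16, quantile-normalized and log2-transformed (neqc of limma 3.58.1, R 4.3.3). Probes needed a detection p under 0.01 on at least 2 arrays, which left 10453 (40.7%). Quantile normalization assumes like distributions on all arrays, so means and median differences over all tested genes are held nearly constant by it. The offset shrinks differences of dim probes. The tested probe of highest mean stood for a gene. limma was fitted to line means for stages, to arrays with 2 cultures per line for lines (8 residual degrees of freedom), and to arrays with line as a block for cultures, with Benjamini-Hochberg adjustment over all tested probes at 0.05. Where a group was below detection on all its arrays, the fold is a bound.

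Every array is given for Irf1, Irf7, Irf9, Stat2, Usp18 and the 20 tested members with the widest range of line means, and among pathway genes the 12 with the widest range that passed the F test were named, with main receptors, kinases and Cxcl10. The members and all lists were chosen with earlier results of these data known. Whether culture numbers pair the lines was checked by the correlation of their deviations from the line means, which was above 0.1 in 12 of 28 line pairs (−0.20 to 0.65), so the numbers were not used as pairs. On simulated data for carcinoma against normal, the fit over lines recovered 14.8% of log2 changes of 1 and 63.4% of changes of 2 (10453 probes).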

Additional observations from a re-analysis of the deposited data

Results flagged for a closer look

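Among the 4 carcinoma lines, the CAF1 mean stood apart from the other lines, by the gap over the range of line means, for Oas1g (8.98, ratio 0.84) and Oas2 (7.08, ratio 0.89), both above Dixon's critical value for 4 values. In all, 31 members were examined in this way, and chance gives about 1 such value in 20. Oas1g was detected on 1 CAF3 array and on no CAF2 or CAF4 array, and Oas2 on no array of these 3 lines. Oas2 passed the detection filter through the CAF1 arrays only, and levels below detection are compressed, so its ratio was fixed by the filter, and that of Oas1g nearly so.

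Members that differed between 1 carcinoma line and the mean of the other 3 in the limma test were listed because lesions of 1 stage then differ by line. CAF1 was higher than the other carcinoma lines for 21 members. The log2 differences were 3.71 for Isg15, 3.69 for Oas1g, 3.65 for Usp18, 2.71 for Plscr1, 2.67 for Gbp3, 2.60 for Oasl2, 2.41 for Bst2 and 2.37 for Mx2. They were 2.05 for Rsad2, 2.02 for Igtp, 2.00 for Irf7, 1.88 for Ifit3, 1.84 for Parp14, 1.78 for Dhx58 and 1.77 for Gbp2. For the translation kinase Eif2ak2 the difference was 1.38, for Irgm1 1.02, for Irf1 0.99 and for Rigi 0.77. Oas2 and Rtp4 were above detection on no array of the other carcinoma lines, so their fitted differences of 1.85 and 0.96 are no measured folds. Oas2 was at least 1.88-fold higher in CAF1, and no fold can be given for Rtp4. Oas1g, Mx2, Irf7 and Rsad2 were detected in CAF3 but on no CAF2 or CAF4 array, so their differences rest in part on compressed levels. Of these, Oas1g, Irf7 and Rsad2 passed the filter only through AdAF1, CAF1 and CAF3 arrays. Both CAF1 arrays were above detection for all 21.

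CAF2 was lower than the other carcinoma lines for 8 members. Usp18 and Plscr1 had log2 differences of −3.49 and −0.97. The other 6 were below detection in CAF2, so their fitted values are no measured folds and have no order. These fitted values were −2.30 for Oasl2, −2.18 for Gbp3, −1.70 for Oas1g, −1.53 for Parp14, −1.48 for Mx2 and −1.38 for Rsad2. As bounds, Oasl2 was at least 2.74-fold, Gbp3 at least 2.31-fold, Oas1g at least 1.18-fold and Parp14 at least 2.40-fold lower in CAF2, and no fold can be given for Mx2 or Rsad2. CAF4 was lower for Plscr1 (−1.73). Rsad2 was below detection in CAF4, so its fitted value of −0.90 is no measured fold, and no fold can be given.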

How the results depend on the processing

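Of 4245 values of single members recomputed under other settings, 3850 kept their direction and side of the threshold, 327 lost and 48 gained a call, and 20 turned sign. All 20 belong to 8 members of carcinoma against normal, none of them called. Without single arrays or lines, the carcinoma minus normal difference ran from −0.018 (without line CAF1) to 0.95 for Mx2, −0.041 (without line CAF1) to 0.29 for Rigi and −0.21 (without line CAF1) to 0.90 for Plscr1. It ran from −0.41 to 0.15 (without line NF3) for Irf1, −0.23 (without line CAF1) to 0.51 for Gbp2 and −0.21 (without line NF2) to 0.80 for Parp14. It ran from −0.16 to 0.075 (without NF3 culture 2) for Zbp1 and −0.52 (without NF3 culture 1) to 1.06 for Lgals3bp. In the same fits the number of members called ran from 10 to 25 among the 8 lines. Against the normal lines it ran from 2 to 6 in HpAF1, 3 to 18 in AdAF1, 5 to 24 in CAF1, 0 to 1 in CAF2, 0 to 8 in CAF3 and 0 to 2 in CAF4. Against the other carcinoma lines it ran from 7 to 24 in CAF1, 0 to 16 in CAF2, 0 to 3 in CAF3 and 1 to 10 in CAF4, and it ran from 0 to 1 for NF3 against NF2.

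Among the other settings, hyperplasia against normal had 1 call with arrays as independent samples or only the stages compared. At an adjusted p of 0.10, HpAF1 had 5, AdAF1 19 and CAF4 1 against the normal lines, and CAF2 13 against the other carcinoma lines. With only the line and the normal lines in the fit, AdAF1 had 2, CAF1 7 and CAF3 0. CAF3 had 2 with the mean of all probes of a gene. CAF4 had 1 with the authors' normalized table, with normexp at an offset of 50 and with an intensity trend. CAF2 against the other carcinoma lines had 5 with no detection filter. The cause was not tested in any of these. With culture number as a replicate block, 19 members differed among lines (18 of the 19 called without it), 19 were called in CAF1, 13 in AdAF1, 4 in HpAF1 and 4 in CAF3 against the normal lines, and 0 in carcinoma against normal. Fits that leave out a line were chosen after seeing the data. Dim probes limit the folds of Oas2, Rtp4, Irf7 and Rsad2, and 16 arrays in 8 lines limit all tests.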
